A study of Mus musculus with 4 samples.

Results

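Interleukins, interferons and colony-stimulating factors are the short-range signals through which leukocytes are produced, called to a tissue and activated, and each acts through a receptor built from a ligand-binding chain and, in most cases, a chain shared with other receptors. Eosinophil biology turns on a small set of them. IL-5, IL-3 and GM-CSF share the common beta chain and sustain eosinophils, IL-33 acts through ST2 (encoded by Il1rl1) and IL-4 is made by eosinophils themselves. Described here are the genes whose symbols begin with Il and a digit, Ifna, Ifnb, Ifng or Ifnl, Csf and a digit, Crlf, Osm or Lif, taken from the authors' table of genes that differed between eosinophils of 2 sites. The name rule found 39 of the 5807 listed genes, of which 9 encode ligands, one of them a receptor antagonist, and 30 encode receptor chains or receptor-like proteins.

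The eosinophils came from WT mice injected with LLC, a Lewis lung carcinoma line of the mouse that produces malignant pleural effusion (MPE), so by the labels and methods both groups carried the tumor cells. The study's text elsewhere calls the bone marrow eosinophils naive, and the labels were followed here. The first group was sorted from bone marrow and the second from pleural lavage fluid at day 2, with 2 libraries in each and approximately 40000 cells in each RNA extraction. The mice of the study were 6 to 8 weeks old, and the strain used for sequencing and any pooling of animals are not given in the sources used here. Bone marrow cells were enriched by F4/80 and pleural cells by CD45, and the pleural gate excluded CD11c+ and Gr1-high cells while the bone marrow gate did not, so site and gate cannot be told apart. The table gives 1 mean read count per tissue and no value per library. There is therefore no spread between replicates and no test in what follows, and "higher" and "lower" describe means only.

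A gene is in the table because the authors called it different between the tissues, so every member differs by that choice, and a gene with few reads could enter only with a large difference. The paper's cut also asked for a change of more than 2-fold by the authors' own values, which were not used here. GENCODE vM21 holds 122 protein-coding genes that the name rule fits. The 39 listed are 32.0% of these, and 25.6% of all 22028 protein-coding genes were listed. Il5ra, Csf2ra, Il6st, Il7r, Il1r1, Il18r1, Ifngr1, Ifngr2 and Il10ra were not listed, nor were the ligands Il5, Il3, Csf2, Il33, Il25 and Ifng, which gives none of them a direction or a level. To compare tissues, pleural cavity reads were divided by 1.356, which brings the 15947438 listed pleural cavity reads to the bone marrow total of 11762543, and the log2 ratio of pleural cavity over bone marrow was taken after adding 1 read to each side. These totals cover the listed genes and are not library depths. With this scaling 3339 listed genes were lower and 2468 higher, whereas the paper counted a larger share as lower. The direction of a gene here can therefore differ from the paper's.

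Cytokine and receptor genes went both ways. Over 2-fold higher in pleural cavity eosinophils were 10 of the 39 genes (25.6%), against 16.0% of all listed genes. Over 2-fold lower were 17 (43.6%), against 50.5% of all listed genes. The remaining 12 lay within 2-fold under this scaling, as did 1943 of the 5807 listed genes, although the paper's cut was over 2-fold. Of 1524 abundant listed genes (1000 reads or more on each side), none had a log2 ratio between -0.469 and 0.182. This empty range was 0.651 wide, narrower than a 2-fold cut in both directions would leave. A single scaling factor shifts the range without widening it. The reason for the mismatch with the paper's cut was not tested. The median log2 ratio was -0.59 over the 39 genes, also with genes at 0 reads set to their bound, and -1.02 over all listed genes. The split moves with the scaling. Unscaled, 15 members were over 2-fold higher and 15 lower, beside 1768 and 2507 of the 5807 listed genes. With a trimmed mean of the log2 ratios of abundant genes, the counts were 7 and 20, beside 520 and 3327 listed genes. Il4, Il10rb and Il6ra on the higher side and Il1b and Il21r on the lower side fell within 2-fold under at least 1 of the 6 scalings compared.

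**Figure D1:**
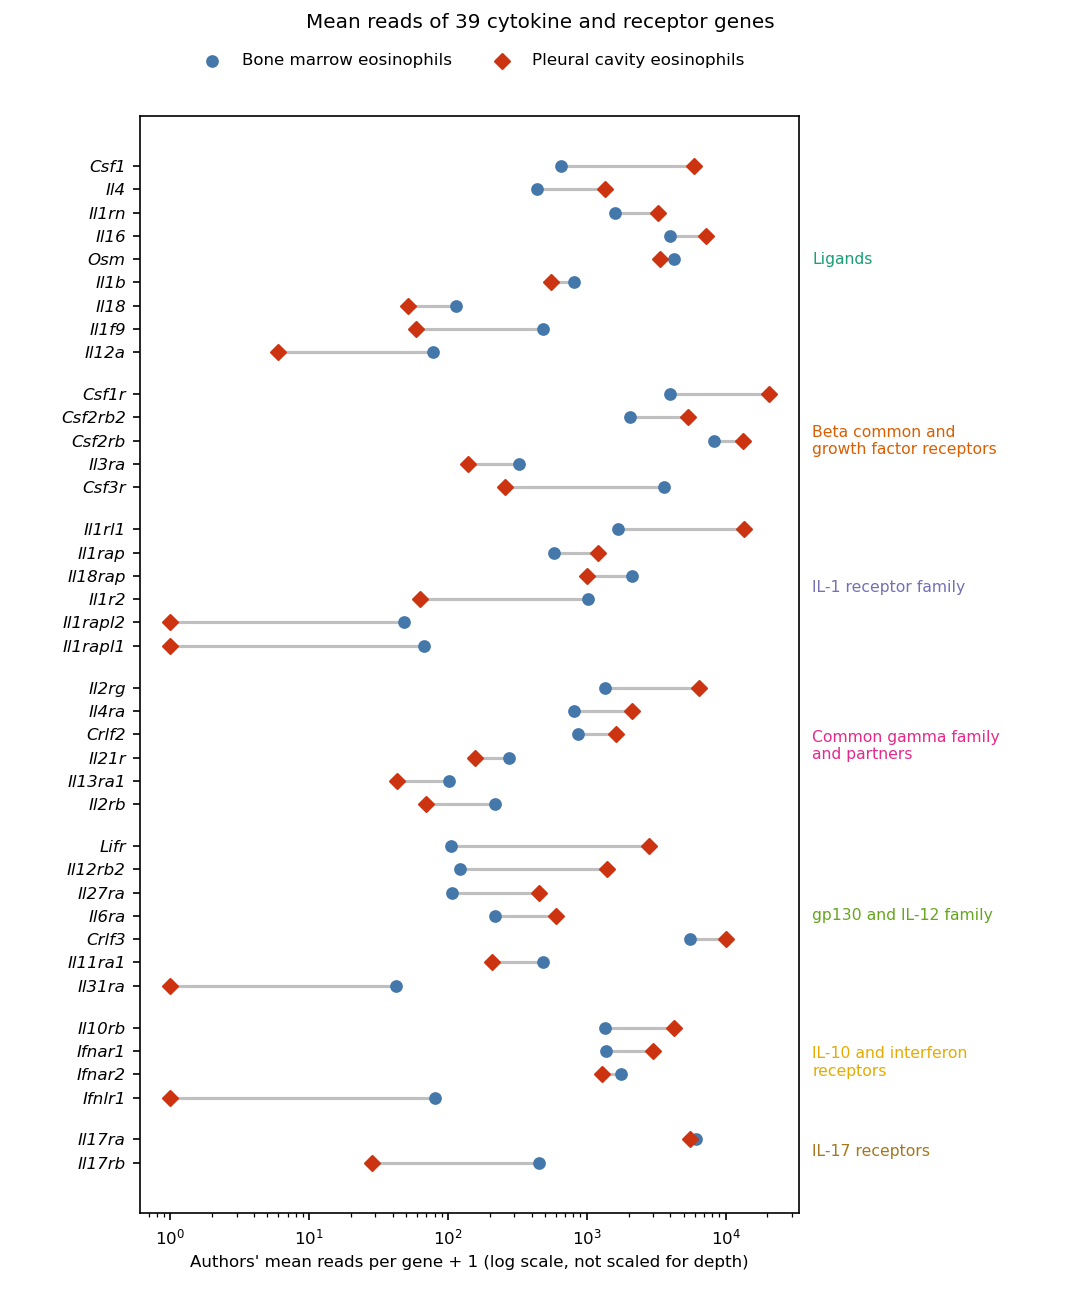
The authors' mean reads plus 1 are plotted on a log axis for each of the 39 genes, with circles for bone marrow eosinophils, diamonds for pleural cavity eosinophils and 2 libraries behind each mean. Genes are grouped by role, and a reader should see Lifr, Il12rb2 and Csf1 far to the right in the pleural cavity, Csf3r and Il1r2 far to the left, and 4 genes at 0 reads there.

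Among the ligands, the macrophage growth factor gene Csf1 had the largest log2 ratio, and of the IL-1 family Il1b, Il18 and Il1f9 were lower and the antagonist gene Il1rn was higher. Csf1 had 5951.5 mean reads in pleural cavity eosinophils against 652 in bone marrow, a log2 ratio of 2.75. Il4, the type 2 cytokine that eosinophils store, had 1342 against 438 reads and a log2 ratio of 1.17. Il16, a chemoattractant for CD4+ cells whose transcript shares 20.8% of its 100-base windows with other genes, had 7182 against 3987 reads, a log2 ratio of 0.41 that turned to -0.04 under the trimmed-mean scaling. Both Csf1 and Il4 were higher under each of 6 scalings. Csf1 stayed over 2-fold in all of them, whereas Il4 came to 0.72 under the trimmed-mean scaling.

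Il1b and its natural antagonist Il1rn lay on opposite sides. Il1b, a main inflammatory cytokine, had 549 mean reads in pleural cavity eosinophils against 811 in bone marrow, a log2 ratio of -1.0002 that sat at the 2-fold line. Il1rn had 3233 against 1596 reads and a log2 ratio of 0.58. Per kilobase of the longest transcript, the antagonist had 1266 reads against 405 for the agonist in the pleural cavity. In bone marrow the values lay close together, 625 against 598, and without spread over libraries they cannot be ordered. Il1f9, which encodes the IL-1 family member IL-36 gamma, was lower, with 58.0 against 484 reads and a log2 ratio of -3.47. Il18, an inducer of interferon gamma, had 50.5 against 112.5 reads and a log2 ratio of -1.57, with a 95% counting interval from -1.95 to -1.25. Counting intervals here treat the reads of both libraries as independent counts and leave out the variation between libraries.

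Osm, which encodes oncostatin M of the IL-6 family, had 3384 mean reads in pleural cavity eosinophils against 4249 in bone marrow, a log2 ratio of -0.77. Per kilobase it ranked 2 of the 39 genes in bone marrow, at 1870 reads, and 8 in the pleural cavity, at 1489. Il12a, the p35 chain of IL-12 and IL-35, rested on 5 against 77 reads, a log2 ratio of -4.06 with a counting interval from -5.47 to -3.47. In all, 2 of the 9 ligands were over 2-fold higher and 4 over 2-fold lower, against 16.0% and 50.5% of all listed genes.

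Of the receptors for hematopoietic growth factors, Csf1r was higher and Csf3r lower. Csf3r, the G-CSF receptor that marks neutrophils, had 257 mean reads in pleural cavity eosinophils against 3626 in bone marrow, a log2 ratio of -4.25. Csf1r, the receptor for CSF1 and a gene of macrophages, had 20627.5 against 3973.5 reads and a log2 ratio of 1.94, with 16.8% of its windows of 100 bases, the read length, shared with Hmgxb3. Per kilobase, Csf1r ranked 1 of the 39 genes in the pleural cavity at 4388 reads and 5 in bone marrow at 845, while Csf3r ranked 25 in the pleural cavity at 73.9 reads and 4 in bone marrow at 1042. With its ligand gene Csf1 also higher, both sides of the CSF1 axis were over 2-fold higher under each of the 6 scalings.

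Markers of other cells went with these receptors. All 14 genes of a neutrophil and granulocyte precursor list were listed and over 2-fold lower, and together they held 0.230% of listed reads from the pleural cavity and 11.7% of those from bone marrow, with a median log2 ratio of -9.30. None was at 0 in the pleural cavity, where Retnlg made up 33927 of the 36701 summed reads. Of 10 macrophage and monocyte markers other than Csf1r, 5 were listed. Of these C1qb had 5065 against 1093 reads, C1qa 2402 against 939 and Marco 754 against 67.5, whereas Ly6c2, with fractional reads, had 608 against 22102 and Cd163 115.5 against 300.5. The part of these markers in the Csf3r and Csf1r values was not tested, and in bulk RNA fewer cells of a type and less RNA per cell cannot be told apart. The study reports a high purity of the sorted eosinophils and examined them by Wright-Giemsa staining. All 8 eosinophil markers were listed, 5 higher and 3 lower, with Itgam changing sign between scalings. Ccr3 (67556.5 against 17177.5 reads) and Siglecf (21371 against 7105.5) were higher in pleural cavity eosinophils, and the granule genes Prg2 (1482 against 555403.5) and Epx (341.5 against 139061.5) were lower.

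The common beta chain was abundant in both tissues. Csf2rb, which serves the receptors for IL-3, IL-5 and GM-CSF, had 13367 mean reads in pleural cavity eosinophils against 8189.9 in bone marrow, a log2 ratio of 0.27 that turned to -0.18 under the trimmed-mean scaling. Csf2rb2, the beta chain that mice use for IL-3 alone, had 5400.3 against 2037 reads and a log2 ratio of 0.97, just inside the 2-fold line. Il3ra, the alpha chain that binds IL-3, went the other way, with 139 against 323.5 reads and a log2 ratio of -1.65. Reads per kilobase of Il3ra were 0.0836 of those of Csf2rb in bone marrow and 0.0220 in the pleural cavity.

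The beta chain genes share part of their sequence. In GRCm38, Csf2rb spans chr15:78325752-78353847 (plus strand) and Csf2rb2 chr15:78282507-78305721 (minus strand). Their coding sequences were identical at 95.2% of 2628 aligned bases, and the longest run without a difference was 242 bases, longer than a read of 100 bases. Read-length windows were the same in both genes for 11.0% of the Csf2rb coding sequence. A read from the following window, bases 2154 to 2253 of the Csf2rb coding sequence, fits both genes equally. It is shown as an example of a stretch from which a read alone cannot be given to one gene. Its paired read may fall where the genes differ, which was not examined. The means of both genes are fractional and uncertain.

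Csf2rb and Csf2rb2: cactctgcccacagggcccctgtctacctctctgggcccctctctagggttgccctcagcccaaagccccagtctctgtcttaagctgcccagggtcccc

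The IL-1 receptor family held an abundant gene that was higher in the pleural cavity, Il1rl1. Il1rl1, which encodes the IL-33 receptor ST2 in membrane and soluble forms that gene-level reads do not separate, had 13613 mean reads in pleural cavity eosinophils against 1670.0 in bone marrow, a log2 ratio of 2.59. Its signaling partner Il1rap, shared by the receptors for IL-1, IL-33 and IL-36, had 1205 against 577 reads and a log2 ratio of 0.62. Both chains were higher under all 6 scalings. Per kilobase, Il1rl1 had 2.47 times the reads of Il1rap in bone marrow and 9.63 times in the pleural cavity, a comparison within a tissue that no scaling affects.

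Other members of this family were lower. Il1r2, the decoy receptor that captures IL-1 without signaling, had 62 mean reads in pleural cavity eosinophils against 1026 in bone marrow, a log2 ratio of -4.46, and is also a known neutrophil gene. Il18rap, the accessory chain for IL-18, had 996.5 against 2129.5 reads and a log2 ratio of -1.53. The neutrophil list above was lower in the same direction as both, and its part was not tested. Il1rapl1 and Il1rapl2, known mainly from neurons, had 66 and 47.5 bone marrow reads and 0 pleural cavity reads. With 3 reads per library as the floor and the scaling to listed totals, they were at least 29.8-fold and 21.5-fold lower. A scaling that divides pleural cavity reads by less gives lower bounds.

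Il1r2, Il1rl1 and Il18rap lie in one cluster with family genes that were not listed, Il1r1 and Il1rl2 between the first pair and Il18r1 between the second. On chromosome 1 of GRCm38 the gap from Il1r2 to Il1rl1 is 304338 bases and from Il1rl1 to Il18rap 49946 bases, so a gene with a log2 ratio of 2.59 lay between genes at -4.46 and -1.53. Their promoters are shown because these listed genes of one cluster lay on opposite sides. The windows are the 250 bases before each RefSeq start on GRCm38.p6, all on the plus strand, and capitals mark matches to a GATA motif (AGATAA), a STAT motif (TTCNNNGAA) or a C/EBP motif (TTGCNNAA) on either strand. They span chr1:40085843-40086092 for Il1r2, chr1:40429320-40429569 for the distal and chr1:40439379-40439628 for the proximal start of Il1rl1, and chr1:40515112-40515361 for Il18rap.

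Il1r2: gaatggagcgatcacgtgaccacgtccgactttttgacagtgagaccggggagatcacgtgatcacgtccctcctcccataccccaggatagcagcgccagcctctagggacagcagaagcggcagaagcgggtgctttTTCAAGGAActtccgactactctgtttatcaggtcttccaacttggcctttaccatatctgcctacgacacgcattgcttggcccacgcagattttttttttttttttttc
Il1rl1 distal: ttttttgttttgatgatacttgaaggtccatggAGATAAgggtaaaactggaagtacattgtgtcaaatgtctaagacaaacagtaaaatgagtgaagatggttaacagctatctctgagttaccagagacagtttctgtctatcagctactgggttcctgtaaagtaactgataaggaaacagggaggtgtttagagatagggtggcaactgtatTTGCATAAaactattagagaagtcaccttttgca
Il1rl1 proximal: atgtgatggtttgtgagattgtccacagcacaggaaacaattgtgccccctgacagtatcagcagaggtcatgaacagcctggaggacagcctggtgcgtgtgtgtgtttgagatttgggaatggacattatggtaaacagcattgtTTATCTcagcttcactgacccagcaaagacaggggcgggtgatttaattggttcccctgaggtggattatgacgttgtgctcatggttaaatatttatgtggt
Il18rap: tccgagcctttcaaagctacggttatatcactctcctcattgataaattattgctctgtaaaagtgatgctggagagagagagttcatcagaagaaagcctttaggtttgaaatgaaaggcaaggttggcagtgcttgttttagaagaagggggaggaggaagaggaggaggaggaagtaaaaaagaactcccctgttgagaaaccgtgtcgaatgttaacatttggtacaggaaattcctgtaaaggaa

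Each Il1rl1 window held 1 GATA match, beginning 217 bases before the distal start and 103 bases before the proximal start, and the distal window also held a C/EBP match 34 bases before the start. The Il1r2 window held 1 STAT match 111 bases before its start, and the Il18rap window held no match to these letters. The motifs did not overlap in these windows. For GATA only the letters AGATAA were searched. The related letters TGATAA, on either strand, are present but unmarked in the Il1r2, distal Il1rl1 and Il18rap windows. The marked matches therefore do not set Il1rl1 apart from its neighbors in GATA sequence. Among 32851 RefSeq windows of this length, 9.99% held the GATA letters, 7.02% the STAT letters and 9.56% the C/EBP letters. Windows were found for 32 of the 39 genes. Of their 41 windows, 4 held the GATA, 6 the STAT and 5 the C/EBP letters. The counts that follow are of genes with windows, where a match in any window of a gene counts. The percentages above are of windows, and no share over all genes is given beside these counts. The GATA letters occurred in 2 of 7 such genes over 2-fold higher (Il1rl1 and Il6ra), in 1 of 16 over 2-fold lower (Il1f9) and in 0 of 9 within 2-fold. In the same order the STAT letters occurred in 1, 3 and 2 genes and the C/EBP letters in 2, 2 and 1. A match is a description of the sequence and no evidence of binding.

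Among receptors that use the common gamma chain, that chain and its partner Il4ra were higher, and its partners Il2rb and Il21r were lower. Il2rg, the chain itself, had 6391 mean reads in pleural cavity eosinophils against 1362 in bone marrow, a log2 ratio of 1.79, and ranked 3 of 39 per kilobase in the pleural cavity. Its reads could be uncertain in part, since 40.2% of the read-length windows of its transcript are shared with Gm20489, although its means are not fractional. Il4ra, its partner in the type I IL-4 receptor, had 2117 against 807 reads and a log2 ratio of 0.95, and so was higher together with Il4. Il21r, the IL-21 binding chain, had 155 against 273.5 reads and a log2 ratio of -1.25, which came to -0.82 unscaled.

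Il2rb, the signaling chain for IL-2 and IL-15, had 69 against 216 reads and a log2 ratio of -2.06. Il13ra1, which pairs with Il4ra in the type II receptor for IL-4 and IL-13, had 42 against 101 reads and a log2 ratio of -1.67, with a counting interval from -2.09 to -1.33. Reads per kilobase of Il4ra were 5.64 times those of Il13ra1 in bone marrow and 35.6 times in the pleural cavity. For Il2rg over Il2rb the same quotient was 15.8 and 232.6. Crlf2, the TSLP-binding chain, had 1623.5 against 870.0 reads and a log2 ratio of 0.46, which came to 0.01 under the trimmed-mean scaling.

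**Figure D2:**
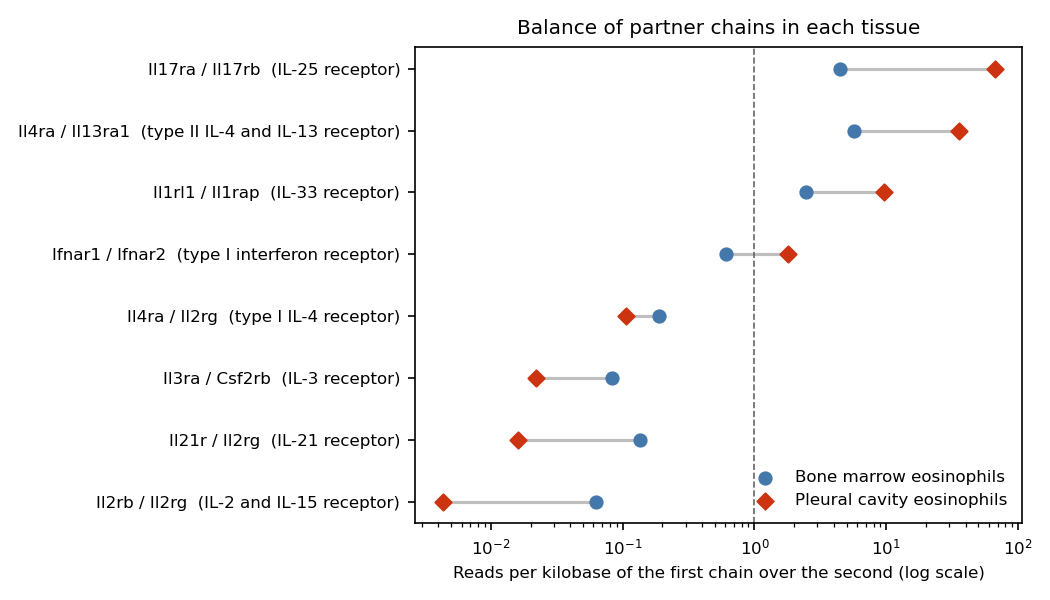
Reads per kilobase of one receptor chain over its partner are plotted on a log axis for 8 receptors with both chains listed, with circles for bone marrow and diamonds for pleural cavity eosinophils. The Il17ra to Il17rb and Il4ra to Il13ra1 quotients lie further right in the pleural cavity, the quotients of Il2rb and Il21r over Il2rg lie further left, and that of Ifnar1 over Ifnar2 crosses the dashed line at 1.

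The gp130 and IL-12 receptor group held the 2 largest positive log2 ratios of the 39 genes. Lifr, the receptor for leukemia inhibitory factor, had 2807 mean reads in pleural cavity eosinophils against 103.5 in bone marrow. Its log2 ratio was 4.31, with a counting interval from 4.12 to 4.53. Il12rb2, the IL-12 receptor chain that engages STAT4, had 1408 against 122 reads and a log2 ratio of 3.08, with 21.5% of its windows shared with Serbp1. Both remained over 2-fold higher in all 6 scalings. Per kilobase Lifr ranked 38 of the 39 genes in bone marrow and 20 in the pleural cavity.

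Il27ra, the ligand-binding chain for IL-27, had 454 against 106 reads and a log2 ratio of 1.65. Il6ra, the IL-6 binding chain, had 599 against 216.5 reads and a log2 ratio of 1.03, just past the 2-fold line, which came to 0.57 under the trimmed-mean scaling. Il11ra1, which binds IL-11, was lower, with 205 against 479 reads and a log2 ratio of -1.66, and 42.7% of the read-length windows of its transcript are shared with other genes, mainly Gm13305. Il31ra had 41.5 bone marrow reads and 0 pleural cavity reads, at least 18.8-fold lower under the scaling to listed totals. The shared chain gp130 (Il6st), with which Lifr, Il6ra, Il11ra1 and Il27ra signal, was not listed. Crlf3, a receptor-like protein without an established ligand, ranked 1 per kilobase in bone marrow and 2 in the pleural cavity, with 10013 against 5543.5 reads and a log2 ratio of 0.41 that turned to -0.04 under the trimmed-mean scaling.

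**Figure D3:**
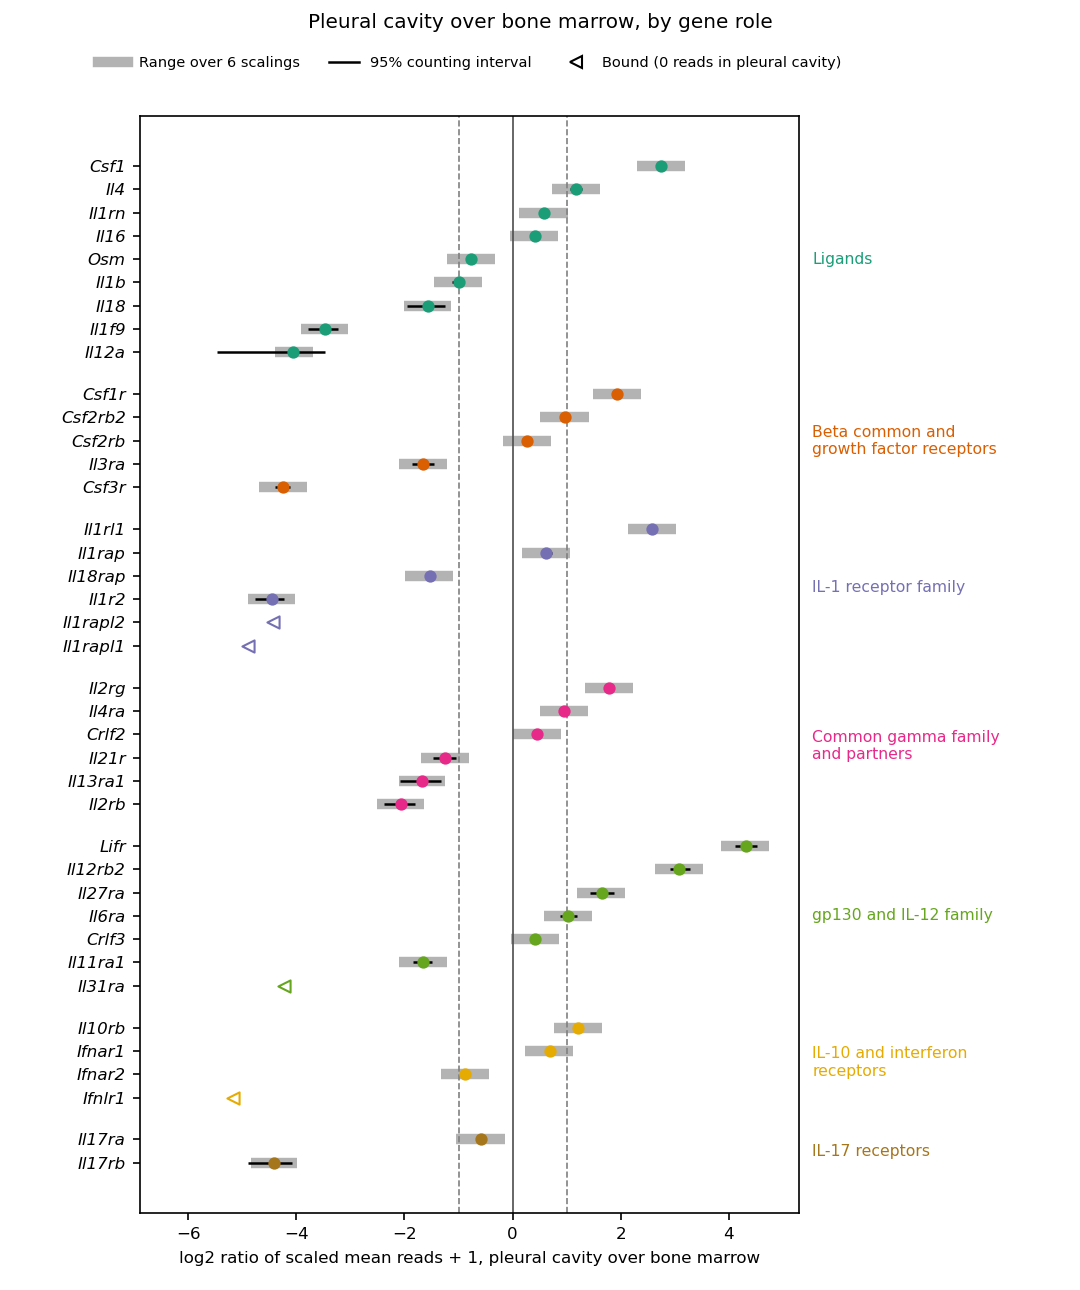
The log2 ratio of pleural cavity over bone marrow is plotted for each of the 39 genes, grouped by role, with black lines for 95% counting intervals, gray bars for the range over 6 scalings and dashed lines at 2-fold. Open triangles are bounds, under the scaling to listed totals, for the 4 genes with 0 pleural cavity reads. The gray bars of Csf2rb, Il16 and Crlf3 cross 0.

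Interferon and IL-10 receptor genes on chromosome 16 lay on both sides. Ifnar1 and Ifnar2 encode the pair of chains that bind type I interferon. Ifnar1 had 2979 mean reads in pleural cavity eosinophils against 1367 in bone marrow, a log2 ratio of 0.68, and Ifnar2 had 1295 against 1748.5 reads and a log2 ratio of -0.87. Each kept its sign under all 6 scalings, but neither stayed within 2-fold in all. Ifnar1 came to 1.12 unscaled. Ifnar2 came to -1.32 with the trimmed mean, -1.02 without the 100 top genes of either tissue and -1.05 without granulocyte marker genes. Reads per kilobase of Ifnar1 were 0.610 of those of Ifnar2 in bone marrow and 1.79 times those in the pleural cavity.

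Il10rb, the chain shared by the receptors for IL-10, IL-22 and interferon lambda, lies between them, 574 bases from Ifnar2 and 59403 bases from Ifnar1. It had 4221 against 1342.5 reads and a log2 ratio of 1.21, which came to 0.76 under the trimmed-mean scaling. Read-length windows shared with the transcript Gm21970 make up 17.6% of Il10rb and 7.33% of Ifnar2. Reads of this stretch could therefore be uncertain, although neither gene has fractional means. Ifnlr1, the interferon lambda chain that pairs with Il10rb, had 79.5 bone marrow reads and 0 pleural cavity reads. It was at least 35.9-fold lower under the scaling to listed totals.

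In the IL-17 receptor family the shared chain stayed abundant and the IL-25 chain was low in the pleural cavity. Il17ra had 5501.5 mean reads in pleural cavity eosinophils against 6098.5 in bone marrow, a log2 ratio of -0.59. Il17rb, which binds IL-25, had 27.5 against 453 reads and a log2 ratio of -4.41, with a counting interval from -4.90 to -4.09. Il17ra had 4.47 times the reads per kilobase of Il17rb in bone marrow and 66.5 times in the pleural cavity.

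Among the receptors for type 2 alarmins, cytokines released at barriers, the IL-33 chain Il1rl1 was thus higher, the TSLP chain Crlf2 was within 2-fold and the IL-25 chain Il17rb was lower. Basophils also carry several of these receptors and make IL-4. Of 9 basophil and mast cell markers 7 were listed, all over 2-fold lower, with a median log2 ratio of -7.66, summed reads of 1257.5 in the pleural cavity against 21115.5 in bone marrow and none at 0. These markers went with Il17rb, Il3ra and Il18rap and against Il4 and Il1rl1, and their part was not tested. The other marker lists were thinly represented. Of T and NK cell markers 2 of 9 were listed and both were lower, 1 of 6 B cell markers (Ms4a1) was listed and was higher, and 2 of 5 erythroid markers were listed and lower.

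**Figure D4:**
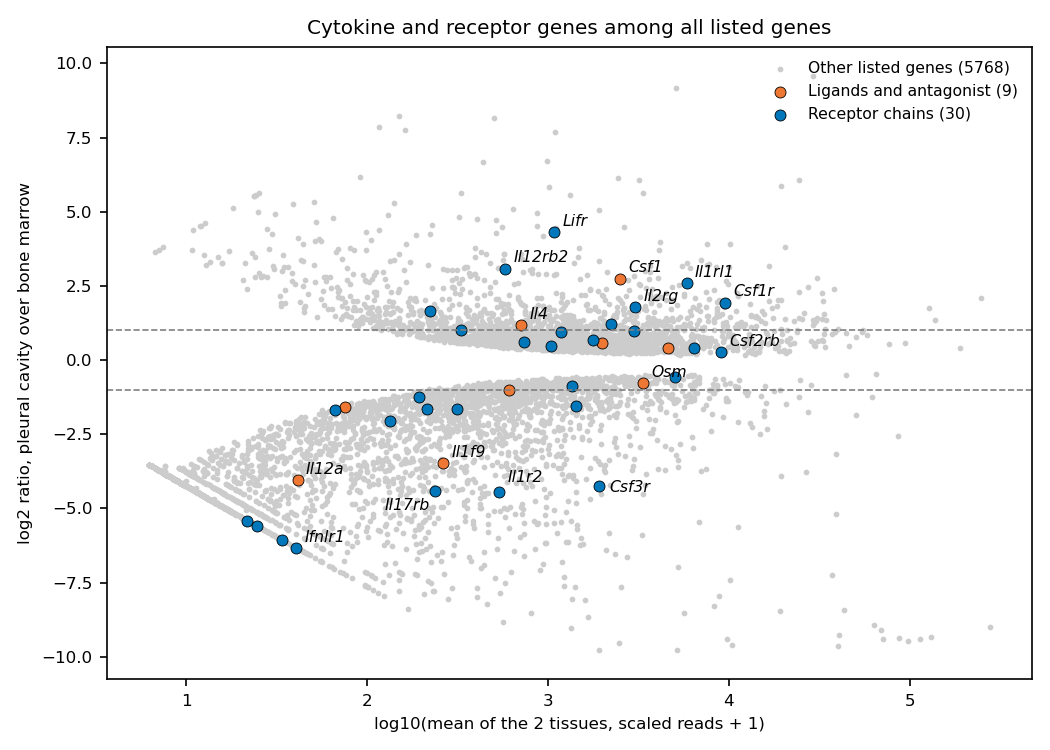
The log2 ratio of each listed gene is plotted against its scaled mean reads over both tissues, with gray points for the other listed genes, orange for the 9 ligands and antagonist, and blue for the 30 receptor chains. Genes with few reads appear only far from 0, mostly below it, and no gene with at least 1000 reads in both tissues lies between -0.47 and 0.18.

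Of 25 genes for the kinases, STATs and inhibitors that act downstream of these receptors, 10 were listed and all 10 had a positive log2 ratio, 4 of them over 2-fold, with a median of 0.76, although some of them, Pias1 and Stat5b included, turned negative under the trimmed-mean scaling. Of all listed genes 42.5% were higher and 16.0% over 2-fold higher, and of those with at least 1000 reads in either tissue 67.4% were higher. Stat6, which carries the IL-4 signal, had 17585.5 mean reads in pleural cavity eosinophils against 4293.5 in bone marrow, a log2 ratio of 1.59. Socs1 and Socs3, feedback inhibitors of cytokine receptors, had 719.5 against 190.5 and 474 against 162 reads, log2 ratios of 1.47 and 1.11. Ptpn6, the phosphatase SHP-1, had a log2 ratio of 1.04.

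Of 16 adaptor and inflammasome genes that act with IL-1 and Toll receptors 7 were listed, 6 higher and 1 lower, none over 2-fold higher, with a median log2 ratio of 0.39. Myd88, the shared adaptor, had 4286.5 against 2040.0 reads and a log2 ratio of 0.63, and Casp1, which cleaves the precursors of IL-1 beta and IL-18, had 1287 against 517 reads and 0.88. Nlrp3 was lower but rested on 2 against 24 reads. Irak3, Irak4 and Tollip were positive here and negative under the trimmed-mean scaling.

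A further set of 17 cytokine and receptor symbols was taken outside the name rule, although its Tslpr is another name for the member Crlf2. Of these symbols 9 were listed, 1 over 2-fold higher and 6 over 2-fold lower, beside 16.0% and 50.5% of all listed genes. Their median log2 ratio was -3.26. Clcf1, a ligand of the gp130 group, had 151.5 against 31 reads. Kit, the stem cell factor receptor of progenitors and mast cells, had 232.5 against 1676 reads and a log2 ratio of -3.28, and Epor, Prlr, Cntfr and Tslp had at most 97.8 reads in either tissue. Ebi3, which pairs with Il12a to form IL-35 and with p28 to form IL-27, had 1658.5 against 2231.5 reads and a log2 ratio of -0.87.

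Per kilobase, the highest members in bone marrow eosinophils were Crlf3 at 2314 reads, Osm at 1870, Csf2rb at 1671 and Csf3r at 1042, and in pleural cavity eosinophils Csf1r at 4388, Crlf3 at 4179, Il2rg at 3827, Csf2rb at 2728 and Il1rl1 at 2568. With no spread over libraries, it is unknown which neighbors in either order differ beyond it. In all, the 39 genes held 0.736% of listed pleural cavity reads and 0.488% of listed bone marrow reads. Fractional means, which can arise when RSEM divides reads between similar genes, were found for 10 members: Csf2rb, Csf2rb2, Csf3r, Ifnar1, Il11ra1, Il12rb2, Il1f9, Il1rl1, Il27ra and Lifr. In 4 of these, Ifnar1, Il1rl1, Il27ra and Lifr, the longest transcript shared no read-length window with another gene of the annotation.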

How the data were processed

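Libraries from sorted eosinophils were sequenced as paired reads of 100 bp. The authors trimmed the reads, aligned them with HISAT2 2.1.0 to GRCm38 (GENCODE vM25), mapped them to genes with Bowtie2 2.2.5 and estimated counts with RSEM 1.2.8 before comparing the tissues with DESeq2. The deposited values used here are the authors' mean expected counts (mean reads) per tissue, not scaled for depth. The authors' fold changes, p-values and q-values of pleural cavity over bone marrow in the same table were not used. Library depths are unknown, and the tests planned for counts per library could not be run. Per-sample columns left unused numbered 0.

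Pleural cavity reads were divided by 1.356, the ratio of the listed totals, and log2 ratios were taken with a pseudocount of 1. Genes past a fold of 2 were counted beside the same share of all listed genes. Folds against 0 reads are bounds against a floor of 3 reads per library, divided by 1.356 like the pleural cavity reads, and so change with the scaling. Counting intervals are exact 95% Clopper-Pearson intervals on 2 times each mean, rounded to whole reads, and cover counting error only. Lengths (the longest transcript), positions and shared read-length windows come from GENCODE vM21, an earlier release on GRCm38, in which 5663 of 5807 listed genes matched by Ensembl identifier. Shared windows are counted for single reads and leave out the paired read. Promoter windows are from RefSeq. Every member is named, and its reads are given in full with at least 100 reads in either tissue or by the size of its ratio. Members, gene lists and receptor pairs were chosen with earlier results of these data known. Values of some genes in the pathway lists are not reported here. The ratio calculation was tested on simulated data. Software was scipy 1.17.1, numpy 2.4.6 and pandas 2.3.3 under Python 3.11.15, and figures were drawn with matplotlib 3.10.9.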

Additional observations from a re-analysis of the deposited data

How the results depend on the processing

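No paired analysis was possible because the table gives 1 mean per tissue, and for the same reason no replicate could be left out and DESeq2 and edgeR could not be run. The median log2 ratio of the 39 genes was -0.15 unscaled, -1.04 with the trimmed mean of log2 ratios, -0.74 without the 100 top genes of either tissue, -0.77 without granulocyte marker genes and -0.44 when centred on the range that holds no abundant listed gene, the last 2 scalings chosen after seeing the data. Those scalings shifted the median of all listed genes by 0.44, -0.45, -0.15, -0.18 and 0.14. The median turned to 0.41 where both tissues had 10 mean reads or more, a filter that removes 5 genes for their low pleural cavity reads and so follows the difference itself, and was -0.87 without genes with fractional reads. Leaving out those genes left 6 members over 2-fold higher, and a fold of 4 left 4 higher and 10 lower. Under every scaling 7 members were over 2-fold higher, 15 were over 2-fold lower and 3 changed sign (Csf2rb, Crlf3, Il16). Csf2rb2 and Il4ra passed 2-fold, with log2 ratios of 1.11 and 1.10, and Il1b did not, at -0.86, when centred on the empty range. Unscaled, Csf2rb2, Il4ra, Ifnar1, Il1rap and Il1rn passed 2-fold higher. With the trimmed mean, Ifnar2, Osm and Il17ra passed 2-fold lower. Among all listed genes, 1768 were over 2-fold higher and 2507 lower unscaled, and 520 and 3327 with the trimmed mean. The lowest counts over the scalings were thus 520 higher and 2507 lower. At a fold of 1.5 the counts were 1703 and 3315, and at a fold of 4 they were 303 and 2122. Without genes with fractional reads 742 were over 2-fold higher, and with at least 10 reads in both tissues 1666 were over 2-fold lower. The median stayed at -0.59 with at least 10 reads in either tissue. Counts at pseudocounts of 0.1 and 5 and with at least 10 reads in either tissue stayed within 1.5 times. By mean transcript length, 9 of the 10 highest members per kilobase were the same in each tissue.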
